A study of Mus musculus with 28 samples.

Results

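Connexins are the proteins of gap junctions, and 7 of their genes (Gjb2, Gjb5, Gjb6, Gja1, Gja4, Gja5 and Gjc1) were followed through 14 cell populations sorted from mouse back skin. They were taken by symbol from the deposited expression table, and each symbol matched 1 row, so the 7 are 7 of the 20 connexin genes in that table and 7 of its 23015 rows. All mice were at postnatal day 5, on a mixed background of FVB/N, C57BI/6J and CD1, and each population had 2 libraries, 28 in all. Skin of the K14-H2BGFP line, in which a keratin 14 promoter drives a nuclear green marker in keratinocytes, gave 8 populations. Neg was a mixture of cells negative for the markers, TAC (K14-H2BGFPLo, Lef1-RFP+) is called Shh-expressing matrix progenitors by the submitters, Mx (K14-H2BGFPLo) is hair matrix, and ORS (K14-H2BGFPHi) is outer root sheath. Epi (K14-H2BGFP+) came from the epidermal preparation and the others from the dermal preparation. DP (Lef1-RFP+, ITGA9Hi) is dermal papilla, Mc (Lef1-RFP+, CD117+) is melanocytes and DF (Lef1-RFP+, CD117-, ITGA9-) is dermal fibroblasts. Papillae were also sorted, as Lef1-RFP+ ITGA9Hi cells, from the Sox2-GFP line (G/AA-DP, GFP+, of guard and awl/auchene follicles, and ZZ-DP, GFP-, of zigzag follicles) and from the Crabp1-GFP line (G-DP, GFP-, of guard follicles, and AA/ZZ-DP, GFP+). From K14-RFP Sox9-GFP skin came HF-SC (K14-RFPHi, ITGA6Hi, Sox9-GFP+), precursors of bulge stem cells, and HF-ORS (K14-RFPHi, ITGA6Hi, Sox9-GFP-), the remaining sheath cells. The labels do not say whether the libraries of a population came from separate animals, so p-values measure the spread between these samples, which may be technical.

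Connexins assemble into hexameric hemichannels, and hemichannels of adjoining cells dock into channels that pass ions and small metabolites. Their genes fall into alpha (Gja), beta (Gjb) and gamma (Gjc) classes, and connexins of a class mix in a channel more readily than connexins of different classes. Beta connexins are characteristic of epithelia. In humans, mutations of GJB2 and GJB6 cause deafness and disorders of skin and hair, while Gja1 (connexin Cx43) is made in nearly every cell type of skin. Gja4 (Cx37) and Gja5 (Cx40) are connexins of vessels, above all of arterial endothelium, and Gjc1 (Cx45) is best known from smooth muscle and heart.

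The 7 genes lie at 5 places in the genome (RefSeq, GRCm38.p6, which is mm10), and each has a transcript whose coding sequence lies in 1 exon. Gjb2 occupies bases 57098602 to 57104702 and Gjb6 bases 57123301 to 57133611 of the minus strand of chromosome 14, with a gap of 18.6 kb between them in which Gm4491 is the only protein-coding gene of the GENCODE M21 annotation. Gja3, a lens connexin, lies 40.6 kb beyond Gjb2. Gja4 (bases 127311420 to 127314039) and Gjb5 (127354809 to 127358164) lie on the minus strand of chromosome 4. Gja1 lies on the plus strand of chromosome 10 (56377300 to 56390419), Gja5 on the plus strand of chromosome 3 (97032402 to 97053634) and Gjc1 on the minus strand of chromosome 11 (102799477 to 102819686). Gja5 overlaps 4930573H18Rik on the opposite strand, and since strand use in counting was not stated, reads of the pair cannot be told apart.

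Promoter sequences from RefSeq (250 bases before to 50 after the start, GRCm38.p6) were found for 6 of the 7 genes, and 4 are shown: Gjb2 and its neighbour Gjb6, which were both higher in ORS than in Epi, Gja1, which was high in nearly every population, and Gja5, which was high in only 2. Capitals mark exact matches on either strand of the GC box GGGCGG, the AP-1 motif TGANTCA, the TATA box TATAAA and its variant TTAAAA.
Gjb2 promoter (chr14:57104653-57104952, minus strand): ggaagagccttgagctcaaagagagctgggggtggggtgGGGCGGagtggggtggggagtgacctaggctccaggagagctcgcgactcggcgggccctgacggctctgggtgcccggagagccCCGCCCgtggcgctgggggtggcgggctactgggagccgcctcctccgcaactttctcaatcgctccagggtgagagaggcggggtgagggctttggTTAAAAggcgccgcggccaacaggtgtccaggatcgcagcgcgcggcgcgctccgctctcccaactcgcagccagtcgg
Gjb6 promoter (chr14:57133562-57133861, minus strand): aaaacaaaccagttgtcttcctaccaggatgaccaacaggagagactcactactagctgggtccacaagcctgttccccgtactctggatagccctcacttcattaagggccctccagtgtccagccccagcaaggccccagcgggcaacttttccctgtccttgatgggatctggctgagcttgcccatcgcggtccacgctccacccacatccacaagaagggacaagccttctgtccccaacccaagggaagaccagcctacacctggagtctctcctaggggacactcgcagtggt
Gja1 promoter (chr10:56377050-56377349, plus strand): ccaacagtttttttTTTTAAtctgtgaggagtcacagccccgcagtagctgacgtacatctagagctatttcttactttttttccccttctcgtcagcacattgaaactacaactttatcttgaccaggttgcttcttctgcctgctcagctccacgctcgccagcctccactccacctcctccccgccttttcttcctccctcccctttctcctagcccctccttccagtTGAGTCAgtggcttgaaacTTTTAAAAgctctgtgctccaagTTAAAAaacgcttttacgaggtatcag
Gja5 promoter (chr3:97032152-97032451, plus strand): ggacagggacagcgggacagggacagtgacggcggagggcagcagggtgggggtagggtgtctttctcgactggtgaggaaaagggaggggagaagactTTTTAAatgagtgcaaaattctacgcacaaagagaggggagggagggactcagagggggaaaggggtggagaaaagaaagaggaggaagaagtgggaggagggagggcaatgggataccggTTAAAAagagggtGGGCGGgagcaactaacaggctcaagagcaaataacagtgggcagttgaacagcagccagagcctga
The neighbours Gjb2 and Gjb6 differed in these letters. The Gjb2 promoter was 70.0% G and C, with GC boxes at -211 and, on the opposite strand, at -126, and TTAAAA at -29, counted from the start of the transcript, where the base before the start is -1. The Gjb6 promoter was 57.3% G and C and held no match to the 4 motifs. Among all 32851 RefSeq promoters of this length the median was 52.7%, a GC box was found in 35.7%, TTAAAA in 19.2%, TATAAA in 13.6% and the AP-1 motif in 7.81%. The Gja1 promoter, at 47.7%, held TGAGTCA at -19 and TTAAAA at 3 and 24, with opposite-strand matches at -236 and at 1 that overlaps the match at 3. The Gja5 promoter, at 55.7%, held TTAAAA at -30, its opposite-strand form at -151 and a GC box at -17. Such matches describe the sequence and do not show that a factor binds there.

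Values are FPKM, fragments per kilobase of transcript, which are scaled for gene length, so that levels of different connexins can be set side by side. Sums per library ran from 285980.6 to 515224 FPKM, with 10951 to 12497 genes at 1 FPKM or more in a library. The depth of sequencing is unknown and no counting error can be given. Genes that every cell uses can be listed at 0 (Malat1 in 10 of 28 libraries), so a gene at 0 is only described as listed at 0. Differences are changes of log2(FPKM + 1) ± SE in a limma fit over 15052 genes, with p-values adjusted over all of them. This scale understates the change of low genes. Calls needed both a log2 change of 1 or more in size and an adjusted p below 0.05. In these bulk samples, fewer cells of a type and less RNA per cell cannot be told apart.

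Gjb2 (Cx26) was highest in the follicle keratinocytes of the K14-H2BGFP line and in Neg, and lowest in surface epidermis. Gjb2 stood at 192 and 212 FPKM in Neg, 157 and 155 in TAC, 195 and 214 in Mx, 315 and 515 in ORS and 6.47 and 2.48 in Epi. It stood at 34.5 and 29.2 FPKM in HF-SC, 34.997 and 22.0 in HF-ORS, 5.18 and 6.36 in DP, 42.2 and 49.8 in Mc and 58.5 and 19.99 in DF. The papilla subtypes lay between 11.8 FPKM (G/AA-DP) and 52.8 FPKM (G-DP). In order of their means ORS led, followed by Mx, Neg and TAC, then Mc, DF, G-DP, HF-SC, HF-ORS, AA/ZZ-DP, G/AA-DP, ZZ-DP, DP and Epi. Neighbours in this order whose libraries did not overlap were ORS and Mx, Neg and TAC, TAC and Mc, and ZZ-DP and DP, and all other neighbours overlapped.

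Gjb6 (Cx30), which forms mixed channels with Gjb2, was also a follicle gene but at a lower level. It stood at 12.5 and 14.8 FPKM in Neg, 21.1 and 42.5 in TAC, 14.4 and 18.8 in Mx, 24.5 and 27.1 in ORS, 3.32 and 2.55 in Epi, 21.2 and 19.3 in HF-SC and 2.82 and 0.732 in HF-ORS. DF held 6.76 and 3.58 FPKM, DP 0.0863 and 0.676, Mc 1.33 and 0.631, and the papilla subtypes 0.674 to 2.22 FPKM. TAC, ORS, HF-SC, Mx and Neg, in this order of means, each lay above all libraries of the other 9 populations. Within these 5, ORS and HF-SC did not overlap, nor did HF-SC and Mx.

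Gjb5 (Cx31.1), a beta connexin of stratified epithelium, was ordered differently. It stood at 5.81 and 3.43 FPKM in Neg, 12.8 and 10.3 in TAC, 11.2 and 17.3 in Mx, 1.68 and 2.31 in ORS, 19.7 and 13.5 in Epi, 3.30 and 0.826 in HF-SC and 5.55 and 10.8 in HF-ORS. DF held 6.45 and 1.55 FPKM, G-DP 2.80 and 0.783 and AA/ZZ-DP 1.70 and 2.08, while Mc was listed at 0 in both libraries and DP, G/AA-DP and ZZ-DP were under 1 FPKM. Epi, Mx and TAC were highest and overlapped in this order, and ORS was the lowest of the keratinocyte populations by mean, although its libraries overlapped those of HF-SC.

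Gja1, the connexin found in most cell types, was high in all populations but Mc. It stood at 188 and 187 FPKM in Neg, 148 and 197 in TAC, 192 and 288 in Mx, 279 and 438 in ORS, 149 and 138 in Epi, 117 and 139 in HF-SC and 186 and 164 in HF-ORS. DP held 126 and 168 FPKM, DF 115 and 199.6, and the papilla subtypes 98.3 to 175. Mc, with 12.96 and 28.4 FPKM, was the 1 population below all others. At the upper end Mx and Neg did not overlap, nor did Neg and HF-ORS, and the 10 populations from HF-ORS down to G-DP each overlapped the next.

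Gjc1 was lower in all keratinocyte populations than in all others. The keratinocyte populations ran, in order of means, through TAC (10.9 and 6.64 FPKM), Mx (5.26 and 5.12), HF-SC (3.70 and 5.97), HF-ORS (6.68 and 2.097), ORS (3.50 and 1.83) and Epi (1.44 and 1.28). Neg held 18.0 and 19.1 FPKM, DP 41.8 and 34.3, Mc 20.5 and 22.4 and DF 38.1 and 39.7. The papilla subtypes ranged from 18.2 to 34.7 FPKM. DF, DP, ZZ-DP, AA/ZZ-DP, G/AA-DP, G-DP and Mc, in this order, each overlapped the next. Neg lay below Mc and above TAC without overlap, but it overlapped G-DP (30.9 and 18.2 FPKM).

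The vessel connexins were low in most populations. Gja5 stood at 26.7 and 21.8 FPKM in Neg, 1.37 and 1.12 in DP and 20.3 and 22.5 in DF, and no library of the other 11 populations exceeded 1.52 FPKM. Gja4 reached 2.04 and 5.97 FPKM in Neg, 5.15 and 2.22 in DF, 3.24 and 3.14 in HF-SC and 1.78 and 1.08 in Mx, and it was listed at 0 in both libraries of HF-ORS, G/AA-DP and AA/ZZ-DP. G-DP held 0 and 5.66 FPKM of Gja4, so this population cannot be placed. Of the 28 libraries, 28 had at least 1 FPKM of Gjb2, Gja1 and Gjc1, 23 of Gjb6, 18 of Gjb5, 11 of Gja4 and 8 of Gja5, and all 7 genes passed the filter for testing.

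**Figure D1:**
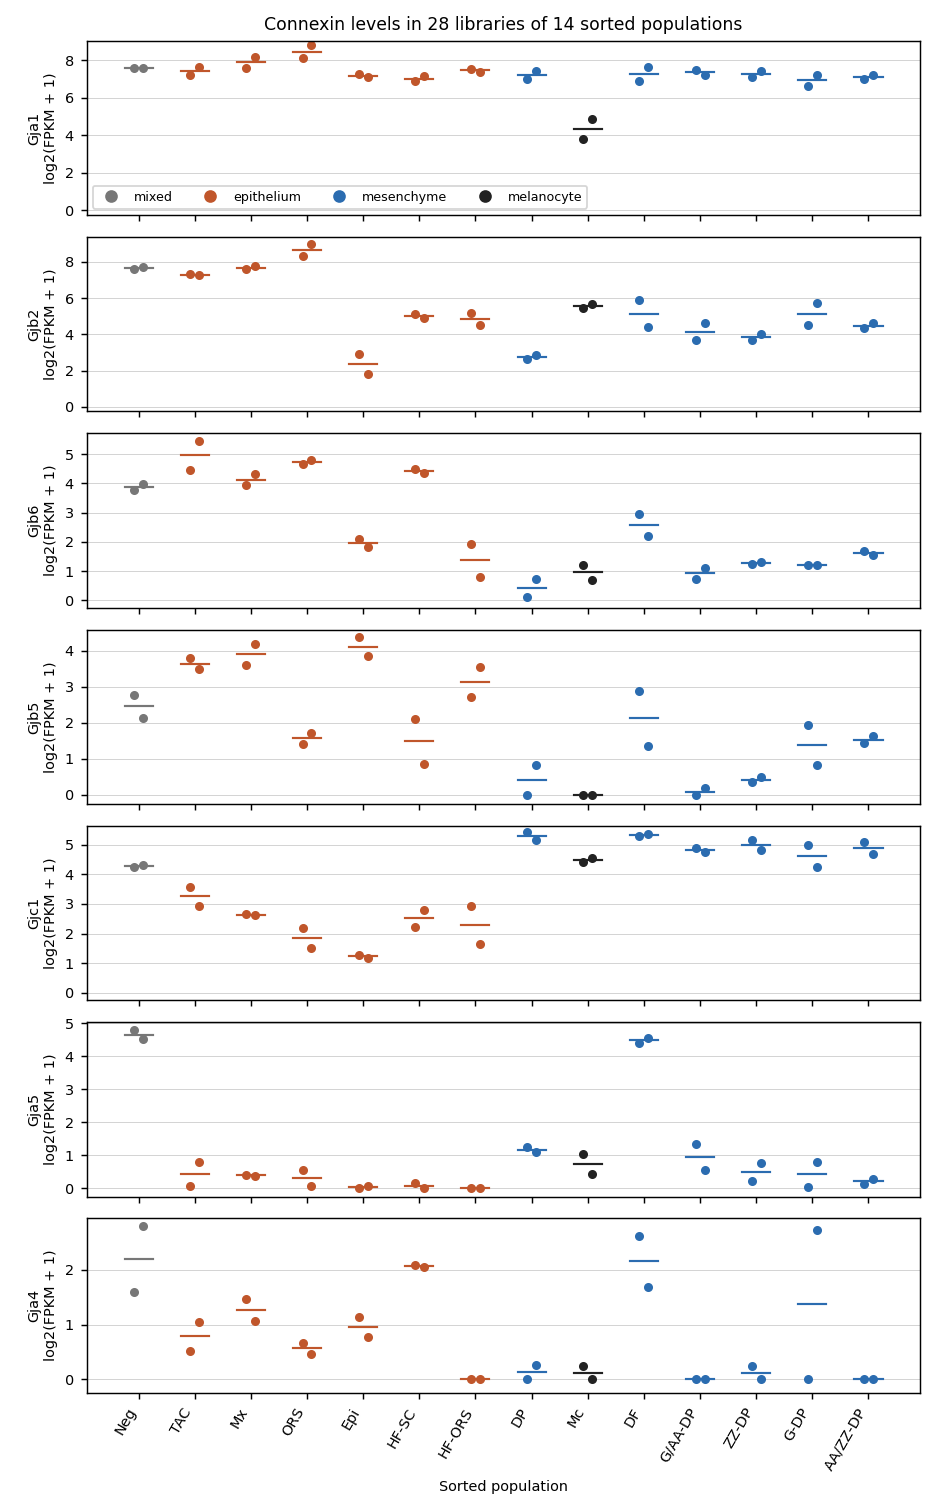
Level of each of the 7 connexins, as log2(FPKM + 1) on axes that differ between genes, in the 14 sorted populations; points are libraries (2 each), lines are their means, and colours mark the layer of the population. Gjb2 is highest in ORS at 315 and 515 FPKM, Gja1 is low only in Mc, and Gja5 is high only in Neg and DF.

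Set against the summed FPKM of all 20 connexin genes, Gja1 led by mean in 11 of the 14 populations and Gjb2 in ORS, Neg and Mc. The sum averaged 485 ± 12.5 FPKM in Neg, 442 ± 43.3 in TAC, 527 ± 79.8 in Mx, 835 ± 245 in ORS and 259 ± 47.7 in Epi (SD, n = 2 each). It averaged 204 ± 19.0 in DP, 307 ± 26.5 in DF and 164 ± 30.0 in Mc. Gjb2 made up 49.7% of the sum in ORS, 41.7% in Neg, 38.7% in Mx and 35.4% in TAC, while Gja1 made up 43.0% in ORS, 38.7% in Neg, 45.6% in Mx and 39.1% in TAC. The ratio of Gjb2 to Gja1 was 1.13 and 1.17 in the ORS libraries, against 0.0433 and 0.0180 in the Epi libraries. It was 1.06 and 0.789 in the TAC libraries and 1.011 and 0.742 in the Mx libraries, so which of the pair was higher differed between the libraries of these populations.

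The 7 members supplied 65.7% of the sum in Epi and 54.8% in Mc, the lowest shares of the 14 populations, and 97.1% in ZZ-DP. Of the sum in Epi, Gja1 made up 55.5% and Gjb5 6.41%. In Mc the leading genes by mean were Gjb2 (28.1%), Gja3 (21.5%) and Gjc1 (13.1%), with Gja1 in the fourth place. The Mc libraries differed in this order, with Gja1 at 9.07% and 15.3% and Gjc1 at 14.3% and 12.1%. In DP Gja1 made up 72.1% and Gjc1 18.7%.

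**Figure D2:**
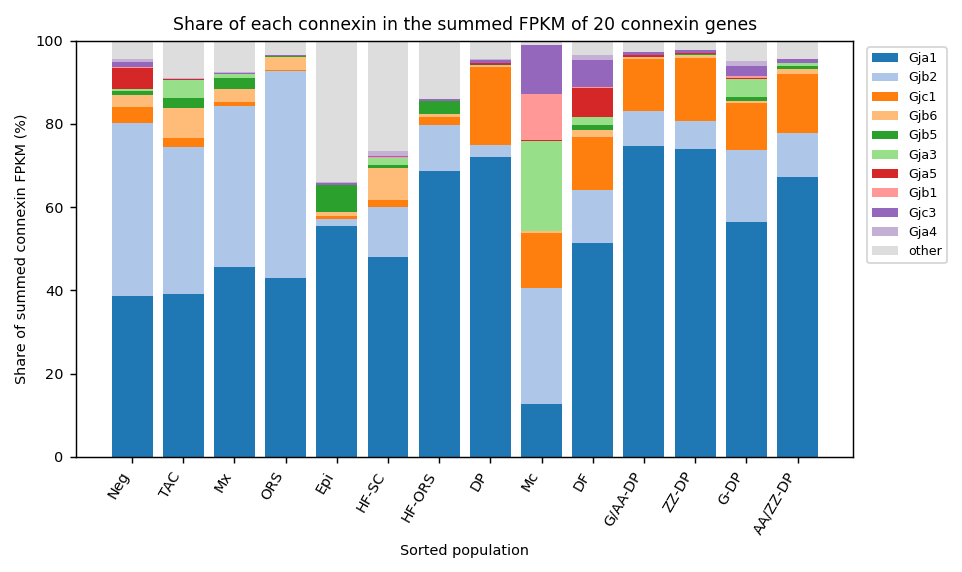
Share of each connexin in the mean summed FPKM of the 20 connexin genes, in percent, as stacked bars for the 14 sorted populations; connexins without a colour of their own are grouped as other. Gja1 and Gjb2 fill most of the bar in ORS, and Gja1 and Gjc1 in DP.

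The ORS against Epi comparison asks how keratinocytes of the growing sheath differ from those of the surface. Epi came from the epidermal preparation and ORS from the dermal one, so preparation and population cannot be told apart here. Gjb2, Gjb6 and Gja1 rose in ORS and Gjb5 fell. Gjb2 differed by a log2 change of 6.31 ± 0.46 (adjusted p = 8.31e-09), Gjb6 by 2.77 ± 0.41 (adjusted p = 6.62e-05) and Gja1 by 1.28 ± 0.34 (adjusted p = 0.0162), and the ORS libraries lay above the Epi libraries for each. Gjb5 fell by 2.54 ± 0.52 on the log2 scale (adjusted p = 0.00192), again without overlap. These are 4 of 7 members called, 3 higher and 1 lower, where 9.83% of all tested genes were called (5.35% higher and 4.48% lower). The call of Gja1 was lost without Epi replicate 1 (adjusted p = 0.073), without Epi replicate 2 (0.104), without ORS replicate 2 (0.245) and with only the libraries of the mouse line (0.0503). Markers of other cells moved in this comparison too. The 11 markers of pericytes and smooth muscle summed to 180 and 227 FPKM in ORS, against 35.4 and 25.7 in Epi. A mean of 1 FPKM was reached by 7 of 11 in ORS and by 4 of 11 in Epi, where Rgs5, Cnn1, Kcnj8 and Des were listed at 0 in both libraries. Of the 11, Acta2, Tagln, Cnn1, Cspg4 and Mcam were called higher in ORS and Notch3 lower. Means in ORS were 64.0 FPKM for Tagln, 47.9 for Acta2, 40.6 for Cspg4 and 40.3 for Mcam. Rgs5, Myh11, Kcnj8, Abcc9 and Des were not called, and Kcnj8 was listed at 0 in both ORS libraries as well. The 8 fibroblast markers summed to 146 and 94.6 FPKM in ORS, against 43.6 and 27.7 in Epi (Col3a1 and Dcn called higher), and the 8 melanocyte markers to 30.3 and 25.3 FPKM in ORS, against 6.14 and 6.44 in Epi (Dct and Kit called higher). The part of these cells in the connexin differences was not tested.

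The gene next to Gjb2 and Gjb6 was then set beside them. On chromosome 14 Gjb2 and Gjb6 both rose in ORS, while Gja3 stood at 0 and 0.544 FPKM in ORS and was listed at 0 in both Epi libraries. On chromosome 4 Gjb5 fell, and Gja4 stood at 0.591 and 0.378 FPKM in ORS against 1.21 and 0.717 in Epi (log2 change -0.40 ± 0.56, adjusted p = 0.849).

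**Figure D3:**
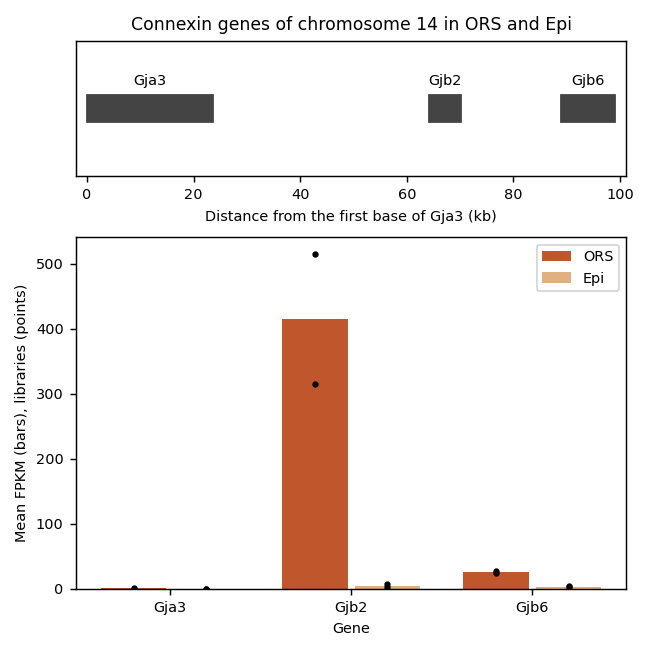
Above, the connexin genes of chromosome 14 drawn to scale as boxes, with the distance in kb from the first base of the leftmost gene; below, mean FPKM (bars) and single libraries (points) of ORS and Epi for the same genes. Gjb2 and Gjb6 are higher in ORS, and Gja3 is at 0 and 0.544 FPKM in ORS and listed at 0 in Epi.

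The sheath populations of the K14-RFP Sox9-GFP line had lower Gjb2 values. HF-SC and HF-ORS held Gjb2 at 22.0 to 34.997 FPKM, against 315 and 515 FPKM in ORS, and the mouse line and the population cannot be told apart in that contrast, which was not tested. The 6 markers of epidermal differentiation that were in the table summed to 1384 and 1108 FPKM in HF-SC, 4407 and 4246 in HF-ORS, 76.0 and 41.1 in ORS and 9090 and 7420 in Epi. Krt1, a keratin of suprabasal epidermis, stood at 1481 and 1024 FPKM in HF-ORS, against 7.96 and 0.548 in ORS. Results that rest on HF-ORS therefore concern a sort with epidermal markers, whose part in them was not tested.

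In HF-SC, set against HF-ORS, Gjb6 had the largest called change of the 7. It stood at 21.2 and 19.3 FPKM in HF-SC, against 2.82 and 0.732 in HF-ORS, a log2 change of 3.05 ± 0.41 (adjusted p = 0.000107). The libraries did not overlap. Gja4 was also called higher (adjusted p = 0.0395), at 3.24 and 3.14 FPKM in HF-SC and listed at 0 in both HF-ORS libraries, so no fold is given. These are 2 of 7 members higher and 0 lower, where 4.4% of all genes were called (2.66% higher and 1.73% lower). Gjb5 was lower in both HF-SC libraries without passing the test (log2 change -1.65 ± 0.52, adjusted p = 0.0754), and it passed without HF-SC replicate 1 (-2.27, adjusted p = 0.0324). With only the 4 libraries of this mouse line no gene passed, and Gjb6 had an adjusted p of 0.305. The call of Gja4 was lost in each fit that left out a library (adjusted p from 0.104 to 0.173), with a pseudocount of 5 (0.0977), without the filter (0.0632) and within the mouse line (0.254).

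Between Mx and ORS only Gjb5 passed the test. Gjb5 rose in Mx to 11.2 and 17.3 FPKM, against 1.68 and 2.31 in ORS, a log2 change of 2.33 ± 0.52 (adjusted p = 0.0103), without overlap. Gjb2 was lower in both Mx libraries than in both ORS libraries, but the log2 change of -0.98 ± 0.46 did not pass (adjusted p = 0.375), nor did that of Gjb6 (-0.62 ± 0.41, adjusted p = 0.667), Gja1 (-0.57 ± 0.34, adjusted p = 0.59) or Gjc1 (0.79 ± 0.37, adjusted p = 0.379). Of all genes, 3.83% were called (1.2% higher and 2.64% lower). The call of Gjb5 was lost with a pseudocount of 0.1 (adjusted p = 0.121) and without ORS replicate 1 (0.105), ORS replicate 2 (0.0651) or Mx replicate 2 (0.172). The pericyte and smooth muscle markers summed to 41.5 and 26.6 FPKM in Mx, against 180 and 227 in ORS. Acta2, Tagln, Cnn1, Cspg4 and Mcam (5 of 11) were called lower and 1, Notch3, higher. Rgs5, Myh11, Kcnj8, Abcc9 and Des were not called, with Kcnj8 listed at 0 in both ORS libraries. The part of such cells in the Gjb5 difference was not tested.

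TAC, set against Mx, showed no connexin call. In limma 0 of 7 members were called and 0 had an unadjusted p under 0.05, where 1.27% of all genes were called. Gjb6 had the largest difference, at 21.1 and 42.5 FPKM in TAC against 14.4 and 18.8 in Mx (log2 change 0.83 ± 0.41, adjusted p = 0.546). The TAC libraries of Gjb6 lay above the Mx libraries but differed from each other by more than the Mx libraries did. Shh, the ligand named in the description of TAC, stood at 70.5 and 55.0 FPKM in TAC and 51.5 and 44.2 FPKM in Mx. Markers of other cells differed between these sorts. In TAC 5 of 8 fibroblast markers and 4 of 9 papilla markers were called higher and 0 lower, beside 1.04% of all genes called higher. The part of such cells in the connexin values was not tested.

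In dermal papilla, set against dermal fibroblasts, 5 of the 7 connexins fell, and Gja1 and Gjc1 overlapped. Gja1 stood at 126 and 168 FPKM in DP against 115 and 199.6 in DF (log2 change -0.06 ± 0.34, adjusted p = 0.976), and Gjc1 at 41.8 and 34.3 FPKM in DP against 38.1 and 39.7 in DF (-0.04 ± 0.37, adjusted p = 0.994). Gja5 stood at 1.37 and 1.12 FPKM in DP against 20.3 and 22.5 in DF, a log2 change of -3.32 ± 0.35 (adjusted p = 7.75e-06), without overlap. Gjb2 stood at 5.18 and 6.36 FPKM in DP against 58.5 and 19.99 in DF (-2.39 ± 0.46, adjusted p = 0.00206), and Gjb6 at 0.0863 and 0.676 in DP against 6.76 and 3.58 in DF (-2.14 ± 0.41, adjusted p = 0.00199). Gja4 (-2.03 ± 0.56, adjusted p = 0.0325) and Gjb5 (-1.71 ± 0.52, adjusted p = 0.0495) passed narrowly. These 5 of 7 compare with 4.25% of all genes called lower and 6.69% called in either direction.

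Markers of other cells moved with these differences. The 8 basal keratinocyte markers summed to 46.5 and 50.2 FPKM in DP and to 546 and 150 FPKM in DF, with all 8 at a mean of at least 1 FPKM in both, and the 6 hair matrix markers to 45.6 and 64.6 FPKM in DP and 514 and 121 FPKM in DF. DF replicate 1, the higher one in both sums, was also the higher one in Gjb2, Gjb5, Gjb6 and Gja4. Without it the calls of Gjb2 (adjusted p = 0.077), Gjb6 (0.0507), Gja4 (0.301) and Gjb5 (0.522) were lost, and Gja5 was still called. The part of keratinocytes in the DF values of the beta connexins was not tested. Other settings also ended calls: a pseudocount of 5 for Gjb6 (log2 change -0.90), Gja4 (adjusted p = 0.0614) and Gjb5 (0.135), no filter for Gja4 (0.0508) and Gjb5 (0.0704), quantile normalization for Gjb5 (0.0556), and leaving out DP replicate 1 or 2 for Gja4 (0.183 and 0.0943) and Gjb5 (0.37 and 0.0602). The replicate number as a block also ended that of Gjb5 (0.0545).

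Melanocytes carried the least Gja1 of any population. Mc held 12.96 and 28.4 FPKM of Gja1 against 115 and 199.6 in DF, a log2 change of -2.92 ± 0.34 (adjusted p = 2.57e-06), and its libraries lay below all 26 others. Gja5 fell as well, to 1.04 and 0.342 FPKM in Mc against 20.3 and 22.5 in DF (-3.76 ± 0.35, adjusted p = 1.82e-07). Gjb6 (-1.61 ± 0.41, adjusted p = 0.00673), Gja4 (-2.04 ± 0.56, adjusted p = 0.0132) and Gjb5 (adjusted p = 0.00506, listed at 0 in both Mc libraries, so that no fold is given) were also called lower. Gjb2 stood at 42.2 and 49.8 FPKM in Mc, between the 58.5 and 19.99 FPKM of the DF libraries (0.41 ± 0.46, adjusted p = 0.622). Gjc1 was lower in both Mc libraries, at 20.5 and 22.4 FPKM against 38.1 and 39.7 in DF, without passing (-0.83 ± 0.37, adjusted p = 0.131). The 5 of 7 called lower stand beside 11.5% of all genes called lower, 6.67% called higher and 18.2% called in either direction.

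In Mc the basal keratinocyte markers summed to 156 and 104 FPKM, against 546 and 150 in DF. The calls of Gja1 and Gja5 held in every alternative. Those of Gjb5 (adjusted p = 0.126), Gjb6 (0.0995) and Gja4 (0.141) were lost without DF replicate 1. Those of Gjb6 (0.0828) and Gja4 (0.0842) were also lost without Mc replicate 2, that of Gja4 without Mc replicate 1 (0.0511), and all 3 with a pseudocount of 5, where the log2 changes were -0.79 (Gjb5), -0.75 (Gjb6) and -0.75 (Gja4).

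**Figure D4:**
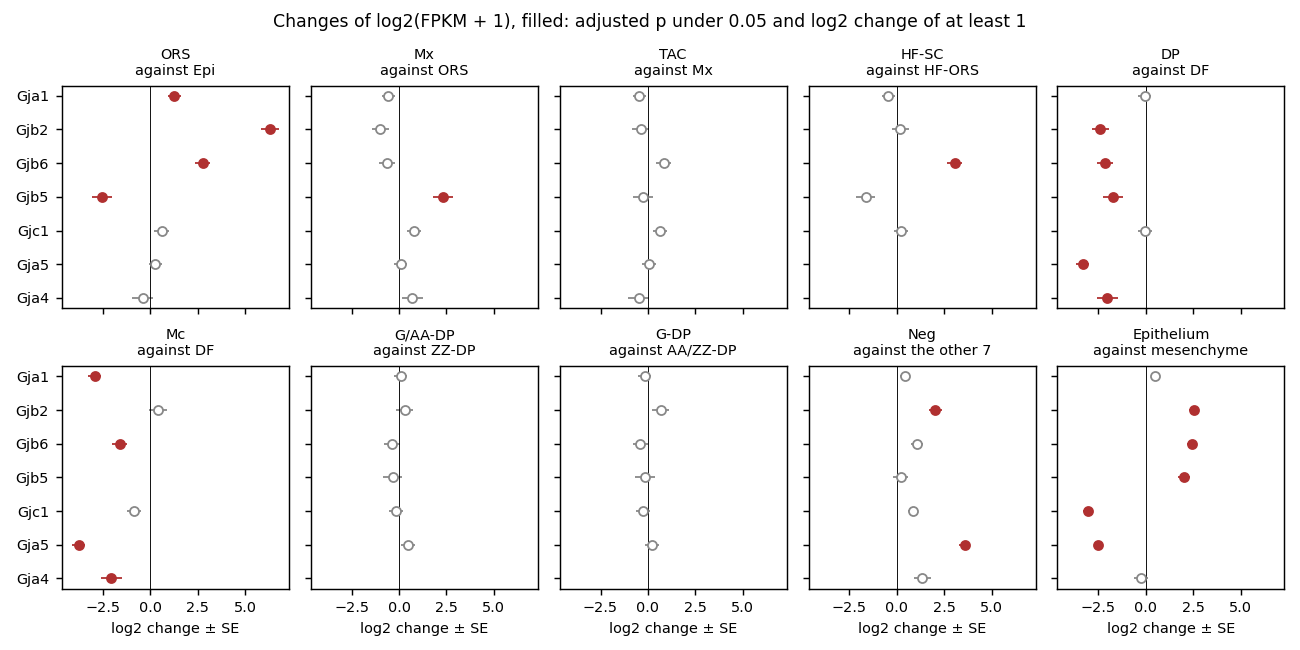
Log2 change of each of the 7 connexins (points) with its SE (lines) in the 10 comparisons, on a log2(FPKM + 1) scale; positive values are higher in the population named first, and filled points passed the test. No point is drawn where a gene is listed at 0 in all libraries of a population compared, as for Gja4 in HF-SC against HF-ORS; Gjb2 in ORS against Epi has the largest change, at 6.31.

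Papillae of different follicle types showed no connexin call. In limma 0 of 7 members passed in G/AA-DP against ZZ-DP, where 0.00664% of all genes did, and 0 had an unadjusted p under 0.05. For Gja1, which made up 74.8% of the connexin sum in G/AA-DP and 74.1% in ZZ-DP, the libraries held 175 and 148 FPKM in G/AA-DP against 135 and 168 in ZZ-DP (log2 change 0.09 ± 0.34, adjusted p = 1.0). In G-DP against AA/ZZ-DP 0 of 7 passed, where 0.505% of all genes did (0.412% higher and 0.093% lower), and 1 had an unadjusted p under 0.05 in limma. That gene was Gja4, at 0 and 5.66 FPKM in G-DP and listed at 0 in both AA/ZZ-DP libraries (adjusted p = 0.496), which was called without G-DP replicate 1 (adjusted p = 0.00378). Gjb2 stood at 22.3 and 52.8 FPKM in G-DP against 19.4 and 23.4 in AA/ZZ-DP (0.67 ± 0.46, adjusted p = 0.784). G-DP replicate 2, the higher library, also held more of the basal keratinocyte markers, at 322 FPKM against 136 in G-DP replicate 1, and 122 and 164 in AA/ZZ-DP.

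Neg, the mixture of unmarked cells, was compared with the mean of the other 7 populations of its line. Gja5 and Gjb2 rose in Neg. Gja5 stood at 26.7 and 21.8 FPKM in Neg, against a lowest value of 0, a median of 0.408 and a highest value of 22.5 FPKM in the 14 other libraries (log2 change 3.57 ± 0.27, adjusted p = 4.24e-08). Only DF came near the Neg level, at 20.3 and 22.5 FPKM, and its libraries overlapped those of Neg. Gjb2 stood at 192 and 212 FPKM in Neg, against 2.48, 54.2 and 515 FPKM as the lowest, median and highest of the others (2.03 ± 0.34, adjusted p = 0.000651), so that Neg lay inside their range. These 2 of 7 called higher stand beside 3.53% of all genes called higher and 3.99% called in either direction.

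The other 5 members did not pass. Gjb6 had a log2 change of 1.05 ± 0.31 (adjusted p = 0.06), Gja4 of 1.35 ± 0.43 (adjusted p = 0.088) and Gjc1 of 0.85 ± 0.28 (adjusted p = 0.109), while Gja1 had 0.45 ± 0.26 (adjusted p = 0.508) and Gjb5 0.21 ± 0.39 (adjusted p = 0.916). Gjb6 passed without DF replicate 1 (0.0407), DP replicate 2 (0.0493) or TAC replicate 2 (0.0363), and Gja4 passed within the mouse line (0.026). Basal keratinocyte markers summed to 2070 and 1332 FPKM in Neg, against 4410 and 4396 in ORS, 1778 and 1439 in Mx and 1558 and 1193 in TAC. In Epi, where Gjb2 was lowest, they summed to 25624 and 17495 FPKM. The 6 hair matrix markers summed to 353 and 223 FPKM in Neg, against 144 and 149 in ORS, 594 and 616 in Mx and 1256 and 1109 in TAC. The part of keratinocytes in the Gjb2 level of Neg was not tested.

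Vascular markers stood beside Gja5 and Gja4 in Neg and DF: those of pericytes and smooth muscle were high in both, and those of endothelium in Neg. The 9 endothelial markers summed to 112 and 188 FPKM in Neg, 7.55 and 10.7 in DP and 12.02 and 9.70 in DF. Pecam1, the adhesion molecule of endothelial junctions, stood at 23.6 and 50.5 FPKM in Neg and 1.36 and 0.696 FPKM in DF. The 6 arterial markers summed to 81.4 and 77.0 FPKM in Neg, 136 and 160.5 in DP and 154 and 97.8 in DF, so their sum did not follow Gja5. All 6 reached a mean of 1 FPKM in Neg, against 3 of 6 in DP and 3 of 6 in DF, where Dll4 and Bmx were listed at 0 in both libraries of each. The 11 markers of pericytes and smooth muscle summed to 560 and 592 FPKM in Neg, 48.4 and 56.8 in DP and 741 and 715 in DF. ORS had the next highest sums, at 180 and 227 FPKM, but held Gja5 at only 0.47 and 0.038 FPKM. Myh11, the smooth muscle myosin, stood at 124 and 106 FPKM in Neg, 4.90 and 5.66 in DP and 73.1 and 65.4 in DF. DF thus held Gja5 at 20.3 and 22.5 FPKM with pericyte and muscle markers as high as in Neg and endothelial markers near the level of DP, and the part of either cell type in the Gja5 level was not tested. HF-SC, with Gja4 at 3.24 and 3.14 FPKM, had endothelial markers at 10.1 and 11.4 FPKM, against 2.11 and 4.44 in HF-ORS. Similar endothelial sums stood beside differing Gja4 levels elsewhere. Gja4 was at 5.15 and 2.22 FPKM in DF and at 0 and 0.193 in DP. In Mx, with endothelial markers at 12.2 and 14.7 FPKM, it was at 1.78 and 1.08. The part of endothelial cells in the Gja4 levels was not tested.

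**Figure D5:**
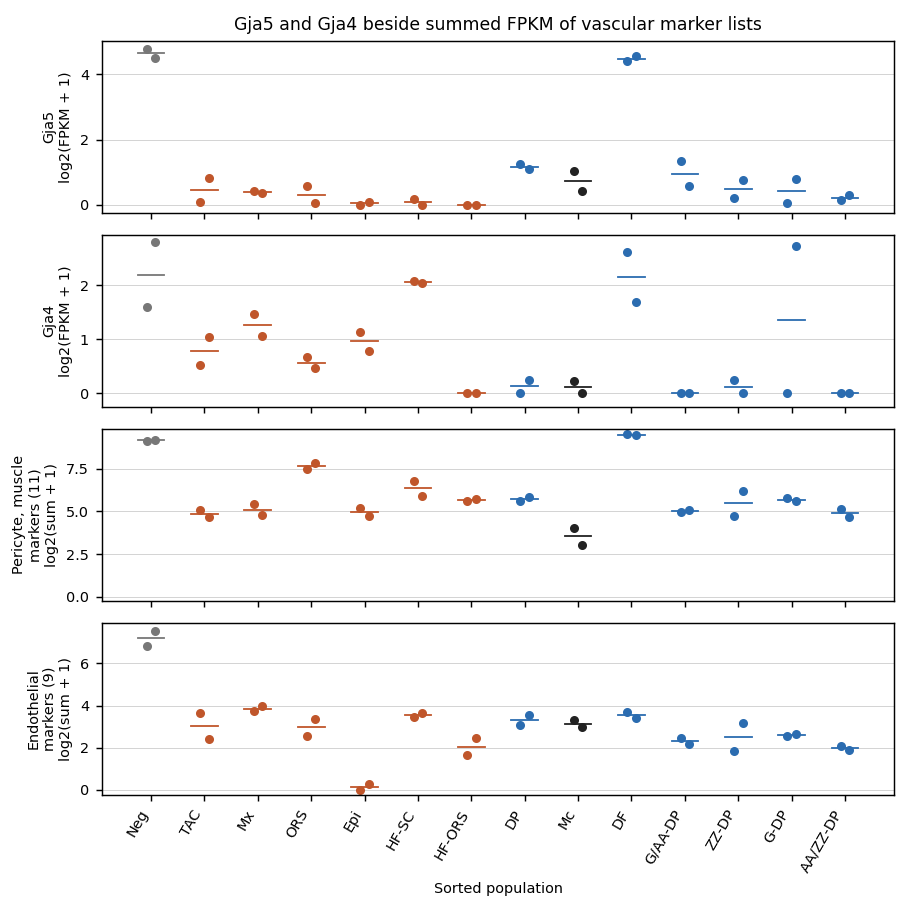
Gja5 and Gja4 as log2(FPKM + 1), above the log2 of the summed FPKM + 1 of 11 pericyte and smooth muscle markers and of 9 endothelial markers, in the 14 sorted populations; points are libraries and lines their means. Neg and DF are highest in Gja5 and in the pericyte and muscle markers, and Neg alone is high in the endothelial markers. ORS has the next highest pericyte and muscle sums, with Gja5 at 0.47 and 0.038 FPKM.

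Across the layers, epithelium (Epi, ORS, Mx and TAC, 8 libraries) was set against mesenchyme (DP and DF, 4 libraries), both of the K14-H2BGFP line. The beta connexins rose in epithelium, and Gjc1 and Gja5 fell. Gjc1 ran from 1.28 through a median of 4.31 to 10.9 FPKM in epithelium, against 34.3, 38.9 and 41.8 FPKM in mesenchyme, a log2 change of -3.06 ± 0.23 (adjusted p = 1.35e-09), without overlap. Gja5 (0, 0.174 and 0.752 FPKM in epithelium, against 1.12, 10.8 and 22.5 in mesenchyme) fell by 2.53 ± 0.22 on the log2 scale (adjusted p = 1.06e-08), also without overlap, and its 2 high mesenchymal libraries were those of DF.

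Gjb2 (2.48, 176 and 515 FPKM in epithelium, against 5.18, 13.2 and 58.5 in mesenchyme) differed by 2.55 ± 0.28 (adjusted p = 3.09e-07), Gjb6 by 2.44 ± 0.25 (adjusted p = 1.23e-07) and Gjb5 by 2.04 ± 0.32 (adjusted p = 2.54e-05). For each of these 3 the layers overlapped. In Gjb2, Epi replicate 1 lay above both DP libraries and below both DF libraries, and Epi replicate 2 lay below all 4. Gja1 (0.51 ± 0.21, adjusted p = 0.0531) and Gja4 (-0.25 ± 0.35, adjusted p = 0.601) did not pass. With 3 of 7 higher and 2 lower, the members stand beside 26.0% of all genes called, 11.5% higher and 14.5% lower.

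Of the other 13 connexins, 8 could be tested, and calls among them fell in 3 of the 10 comparisons. In Mc, Gjb1 (Cx32), known from liver and myelinating Schwann cells, rose to 19.8 and 16.0 FPKM, against 0.486 and 0 in DF (log2 change 3.95 ± 0.33, adjusted p = 3.39e-08), and Gja3 to 22.9 and 47.7 FPKM, against 6.95 and 4.85 in DF (2.32 ± 0.66, adjusted p = 0.0157). In DP, Gjc3, a Schwann cell connexin, fell to 1.43 and 1.68 FPKM, against 13.6 and 27.1 in DF (-2.99 ± 0.42, adjusted p = 0.000148), and Gja3 to 0 and 0.464, against 6.95 and 4.85 in DF (-2.50 ± 0.66, adjusted p = 0.0243). The 7 Schwann cell markers summed to 6.08 and 13.1 FPKM in DP and 74.3 and 77.4 FPKM in DF, and the 8 melanocyte markers to 25.9 and 31.4 FPKM in DP and 1386 and 1401 FPKM in DF, and their part in these differences was not tested. Mc also held Gjc3, at 20.4 and 18.6 FPKM, and was not called against DF (log2 change 0.02 ± 0.42). In epithelium Gjc3 was called lower than in mesenchyme (-1.97 ± 0.26, adjusted p = 3.25e-06). Calls were 2 of 8 higher in Mc against DF and 2 of 8 lower in DP against DF, beside 6.67% and 4.25% of all genes. In epithelium against mesenchyme they were 1 of 8 higher and 1 lower, beside 11.5% and 14.5%. The median log2 change of the 8 was -0.47 in DP against DF, -0.11 in Mc against DF and -0.05 in epithelium against mesenchyme, beside 0.01, 0.02 and 0.05 over all genes tested. In the other 7 comparisons 0 of the 8 were called by limma, with 0 to 3 of them at an unadjusted p under 0.05. Of all genes, 0.00664% to 9.83% were called in these. Panx1, a pannexin and the 1 tested of 3, was called in 0 of 10 comparisons, with 3 at an unadjusted p under 0.05, and stood between 1.40 and 13.5 FPKM in the 28 libraries.

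Genes whose products anchor, traffic or degrade connexins formed a list of 14, all of which were tested. Dbn1, whose product drebrin tethers connexin plaques to actin, rose in ORS to 11.8 and 10.9 FPKM, against 0.739 and 0 in Epi (log2 change 3.23 ± 0.57, adjusted p = 0.000484). It was the 1 call of 14 in that comparison, where 9.83% of all genes were called. Ezr, a membrane linker to actin, fell in DP to 8.03 and 5.53 FPKM, against 35.9 and 16.8 in DF (-1.74 ± 0.34, adjusted p = 0.00231). In that comparison 2 of 14 were called, both lower, where 4.25% of all genes were called lower and 6.69% in either direction.

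Cav1, the main protein of caveolae, fell in Mc to 10.96 and 23.0 FPKM, against 149.8 and 272 in DF (-3.58 ± 0.59, adjusted p = 0.000145), with Dbn1 and Prkcd also called lower there. In that comparison 3 of 14 were lower and 1 higher, beside 11.5% and 6.67% of all genes. Cav1 was the 1 call of 14 in Neg (1.83 ± 0.45, adjusted p = 0.018), where 3.99% of all genes were called. In epithelium 2 of 14 were called higher, Ezr among them, and Dbn1 and Cav1 lower than in mesenchyme, beside 11.5% and 14.5% of all genes. The list's median log2 change was -0.07 in ORS against Epi, -0.18 in DP against DF and 0.03 in Mc against DF, beside 0.01, 0.01 and 0.02 over all genes tested. In the remaining 5 comparisons 0 of 14 were called by limma, with 0 to 4 at an unadjusted p under 0.05. Of all genes, 0.00664% to 4.4% were called in these.

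The genes whose population means most resembled those of each connexin were found by Pearson's r of mean log2(FPKM + 1) over the 14 populations, among 11169 genes, as a description with shared libraries behind all values. Closest to Gjb2 were Cux1, Prps2 and Fam26e, each at 0.91, and closest to Gjb6 were Cldn8, a claudin of tight junctions (0.96), Lhx2, a transcription factor of follicle stem cells (0.95), and Zc3h14 (0.94). Among the genes closest to Gjb5 were Fam83c (0.96) and Kremen2 (0.93). Gja1 was closest to Pdzd2 (0.93), Hoxb5 (0.91) and Tead3 (0.90). Gjc1 was closest to Vim, the intermediate filament of mesenchyme, Mef2c and Zeb2, each at 0.97, and Gja5 to Myh11, Sema5b and Mustn1, each at 0.97. Gja4 had no gene above 0.80 (Sorbs2 and Synpo2). Among the 21 pairs of members, r was highest for Gjb2 and Gjb6 at 0.77 and lowest for Gjb5 and Gjc1 at -0.66, and Gja4 and Gja5 stood at 0.59.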

How the data were processed

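Cells were sorted from postnatal day 5 back skin; per the labels' protocols, RNA with an integrity number of at least 8.8 was used, and 6 ng of it was amplified, 100.0 ng of the product going into a library. The authors deposited 1 table of FPKM values, 1 column a library, and TopHat2 2.0.3, Bowtie2 and Cufflinks 2.1.1, with the build mm10, are named in the submitters' processing notes. The sources used here do not give the annotation, filters or any scaling between libraries. Of 23235 rows, 220 identical ones were dropped. Genes with at least 1 FPKM in 2 libraries (15052) were tested on log2(FPKM + 1) with limma 3.58.1 in R 4.3.3, in 1 fit over all 28 libraries with a mean per population, since 2 libraries give too little spread alone (14 residual and 5.7 prior degrees of freedom), with Benjamini-Hochberg adjustment within each of 10 comparisons. The script was tested on simulated data for DP against DF, with 50 genes changed at each size. It recovered 7 of 50 log2 changes of 1, 39 of 50 of 2, 49 of 50 of 3 and 50 of 50 of 4. There were 14 false calls among 15052 genes, a number to be set beside the recovered changes. A missing call therefore does not show that a change near a log2 size of 1 was absent. The changed genes all rose in DP and had a mean log2(FPKM + 1) above 2 over the populations. The recovery of falls and of lower genes was not covered. Alternatives were other pseudocounts, filters and scaling, single mouse lines, a replicate block and leaving out each library.

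The members, gene lists and comparisons were chosen with earlier results of these data known. Named genes were the 7 members, other connexins at 1 FPKM or more or called, called members of the pannexin and connexin-binding lists, marker genes highest in the population described, and the 3 genes most like each member with at least 5 FPKM, without predicted names, small RNAs or rows of several names. Malat1, Shh, Krt1, Pecam1 and Myh11 were named after their values were seen. Gene positions and promoters are those of RefSeq. Some genes of these lists are not reported here. Depth is unknown, so no counting interval is given.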

Additional observations from a re-analysis of the deposited data

How the results depend on the processing

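Of 70 member changes, 24 were called. Under the 7 alternatives other than leaving out a library, 466 values kept direction and side of the threshold, 16 lost their call, 2 gained one and 6 of uncalled genes changed sign. Leaving out each library of a comparison in turn, 373 kept both, 24 lost their call, 5 gained one and 18 of uncalled genes changed sign. The cause was not tested. With other settings the changed signs were, in TAC against Mx, Gja5 -0.18 (pseudocount 0.1) and -0.07 (quantile normalization), in G-DP against AA/ZZ-DP, Gja1 0.01 (quantile normalization), in Neg, Gjb5 -0.08 (pseudocount 5), and in epithelium against mesenchyme, Gja4 0.24 (pseudocount 0.1) and 0.04 (quantile normalization). Over the left-out libraries the log2 changes that crossed 0 ranged from -0.17 to 0.34 for Gja5 in Mx against ORS, from -0.55 to 0.03 for Gjb5 and -0.31 to 0.42 for Gja5 in TAC against Mx, and from -0.14 to 0.51 for Gjb2 and -0.42 to 0.89 for Gjc1 in HF-SC against HF-ORS. They ranged from -0.45 to 0.33 for Gja1 and -0.18 to 0.10 for Gjc1 in DP against DF, from -0.34 to 1.16 for Gjb2 in Mc against DF, and from -0.18 to 0.77 for Gjb2 and -0.06 to 0.25 for Gja1 in G/AA-DP against ZZ-DP. In G-DP against AA/ZZ-DP they ranged from -0.69 to 0.40 for Gjb5, -0.46 to 0.13 for Gja1, -0.17 to 0.59 for Gja5 and -0.62 to 0.11 for Gjc1, and in Neg from -0.10 to 0.52 for Gjb5.

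Counts of all genes called moved over 1.5 times with a pseudocount of 5 in DP against DF (668, from 1007), Mc against DF (1695, from 2738), Neg (244, from 600) and epithelium against mesenchyme (1907, from 3917), with a pseudocount of 0.1 in G-DP against AA/ZZ-DP (28, from 76), and without the filter in G/AA-DP against ZZ-DP (4, from 1). With only the mouse line's libraries they were 0 in HF-SC against HF-ORS (with 1686 at an unadjusted p under 0.05 in limma, and 662 called in full), 2 in G/AA-DP against ZZ-DP and 2 in G-DP against AA/ZZ-DP. Leaving out a library, counts ranged from 947 to 1070 in ORS against Epi (1480 in full), 193 to 409 in Mx against ORS (577), 51 to 85 in TAC against Mx (191), 316 to 757 in HF-SC against HF-ORS, 539 to 1023 in DP against DF, 2011 to 2301 in Mc against DF, 1 to 15 in G/AA-DP against ZZ-DP, 13 to 282 in G-DP against AA/ZZ-DP, 318 to 635 in Neg and 3471 to 4342 in epithelium against mesenchyme. Where 1 library of a population is left, it is assumed to vary like the others.

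Populations share replicate numbers whose meaning is not stated. Deviations from the population means of samples with the same number had correlations between 0.057 and 0.275 in K14-H2BGFP (28 pairs, 27 over 0.1), and of 0.285 (Sox2-GFP), 0.283 (Crabp1-GFP) and 0.071 (K14-RFP Sox9-GFP) in the other lines. All were positive, a hint from the data that a number marks shared variation, but not every pair passed 0.1 and the labels name nothing shared, so the block was kept as an alternative. A replicate block within each line gave 336 calls in TAC against Mx and 1125 in HF-SC against HF-ORS, where 191 and 662 were found without it. Among the members, the block added the call of Gjb6 in Neg (adjusted p = 0.0471) and ended that of Gjb5 in DP against DF (adjusted p = 0.0545).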

Other observations

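Gja3 and melanocyte markers stood side by side in the guard papilla sort. Gja3 held 9.75 and 9.78 FPKM in G-DP against 1.38 and 0.930 FPKM in AA/ZZ-DP (log2 change 2.33, limma adjusted p = 0.184), and 22.9 and 47.7 FPKM in Mc. The 8 melanocyte markers summed to 1201 and 1232 FPKM in G-DP, against 58.0 and 72.8 FPKM in AA/ZZ-DP, with all 8 at a mean of at least 1 FPKM in both. In the Sox2-GFP line the same markers summed to 119 and 61.5 FPKM in G/AA-DP, against 33.4 and 755 FPKM in ZZ-DP, while Gja3 held 0.398 and 0 FPKM in G/AA-DP, against 0.0893 and 0.163 FPKM in ZZ-DP.

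Gja3 also ran higher in the matrix progenitors, at 11.8 and 25.8 FPKM in TAC against 2.44 and 6.62 FPKM in Mx (log2 change 1.86, adjusted p = 0.268), which did not pass. The 8 melanocyte markers summed to 285 and 198 FPKM in TAC, against 40.6 and 51.0 FPKM in Mx. In limma 0 of 8 were called, but 7 had an unadjusted p under 0.05. Their median log2 change was 2.45, beside 0.0 over all genes tested. The same markers summed to 702 and 1019 FPKM in Neg, where Gja3 was lower than in TAC, at 1.70 and 3.83 FPKM. In DF they summed to 1386 and 1401 FPKM, with Gja3 at 6.95 and 4.85 FPKM. The part of melanocytes in the Gja3 values was not tested.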
